A study of Mus musculus with 39 samples.

Results

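Messenger RNA of 44 genes for protein folding, translocation, glycosylation, degradation and stress signalling in the endoplasmic reticulum (ER) was followed in mouse parathyroid glands, which secrete parathyroid hormone. The genes were chosen by name from their roles, with earlier results of these data known. All 44 have a row among the 27179 gene rows of the count table. They comprise 12 chaperones and cofactors, 4 disulfide isomerases, 8 genes of translocation and signal peptide cleavage, 5 of glycosylation and its folding check, 8 of degradation, and 7 stress sensors and transcription factors. RNA was sequenced in 39 samples, each made from glands pooled from 2 male mice aged 11 weeks. All mice carried Bmal1, a core clock gene also called Arntl, with both copies floxed around exon 8. The 21 WT samples came from Bmal1 flox/flox littermates without Cre, so the controls carry the floxed alleles too. The 18 KO samples came from PTHcre;Bmal1 flox/flox mice, in which Cre is driven by a human PTH promoter. Glands were taken every 4 h from lights on, which is zeitgeber time (ZT) 0, giving 3, 4, 2, 3, 5 and 4 WT samples and 3, 3, 3, 2, 3 and 4 KO samples at ZT0, 4, 8, 12, 16 and 20.

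A secretory cell threads nascent hormone precursors through the SEC61 channel into the ER, removes their signal peptides, and folds them with chaperones such as BiP (Hspa5) and with disulfide isomerases. Proteins that do not fold are returned to the cytosol for degradation, and the sensors IRE1 (Ern1), PERK (Eif2ak3) and ATF6 respond to unfolded protein in the lumen. Their output raises transcription of many chaperone genes, known as the unfolded protein response. Parathyroid hormone is a short secreted peptide made as a precursor with a signal peptide, and the gland has a large secretory apparatus.

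A feature that 9 of these genes share is in their promoters. Its sequences are shown because 4 of the genes that carry it are among those lower in KO below. Of the lower genes with a promoter sequence, 7 lack it. The ER stress response element, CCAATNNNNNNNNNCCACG, is known to be bound by ATF6 together with the CCAAT-binding factor NF-Y. A promoter window from RefSeq (assembly GRCm38.p6, 250 bases before to 50 after the gene start) was found for 37 of the 44 genes. The element stood on either strand in 9 of these 37 windows (24.3%) and in 37 of 27025 windows of all genes (0.137%). In the lines that follow the outer letters of the element are in capitals, the 9 bases between them and the flanks are in lower case, and each is written 5′ to 3′ on the strand named.
Hspa5, chr2:34772020-34772048, plus strand: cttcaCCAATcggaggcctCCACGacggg
Hsp90b1, chr10:86705633-86705661, minus strand: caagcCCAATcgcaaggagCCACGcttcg
Hsp90b1, chr10:86705528-86705556, plus strand: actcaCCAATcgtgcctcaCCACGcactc
Calr, chr8:84847070-84847098, plus strand: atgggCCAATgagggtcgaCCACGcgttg
Canx, chr11:50325795-50325823, minus strand: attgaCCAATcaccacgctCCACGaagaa
Dnajc3, chr14:118937822-118937850, plus strand: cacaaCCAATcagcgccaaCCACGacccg
Creld2, chr15:88819515-88819543, minus strand: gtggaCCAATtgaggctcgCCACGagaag
Pdia6, chr12:17266486-17266514, plus strand: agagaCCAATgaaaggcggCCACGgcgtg
Derl3, chr10:75893237-75893265, minus strand: gctagCCAATggggaagtcCCACGgtaga
Syvn1, chr19:6046527-6046555, plus strand: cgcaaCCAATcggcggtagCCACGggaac
Of the 9 genes, 6 are chaperones or cofactors, 1 is a disulfide isomerase and 2 act in degradation, and none of the 16 genes of translocation, glycosylation or sensing with a window carried it. The elements began at positions -212 to -44 relative to the annotated start. The element was searched as one already known from the ER stress response, so its higher share among ER genes is no finding of these data. A match to these letters describes the window and does not show binding in these glands.

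**Figure D1:**
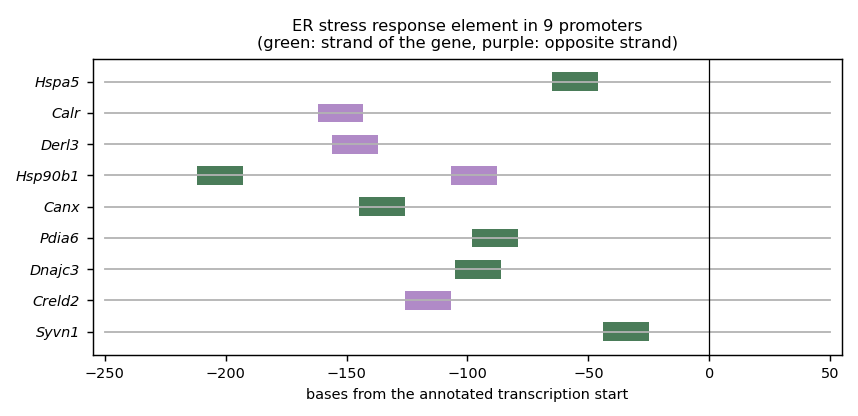
Position of the ER stress response element in the 9 promoters that carry it, as distance in bases from the annotated transcription start (0). Grey lines span the window searched, green boxes lie on the strand of the gene and purple boxes on the opposite strand, and Hsp90b1 carries 2.

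The tissue label held up against its markers. Pth ranged from 61680 to 227069 CPM in WT and from 65434 to 146790 CPM in KO. CPM here is the count relative to its library total, scaled with trimmed mean of M-values factors. The parathyroid transcription factor Gcm2 ranged from 275 to 509 CPM and from 307 to 467 CPM. Libraries held 38111766 to 68938704 counts. The glands came with variable amounts of other tissue: the summed level of 14 thyroid follicle markers ranged from 2.76 to 61877 CPM in WT and from 6.16 to 33984 CPM in KO, and that of 20 lymphoid markers from 11.0 to 2058 CPM and from 14.4 to 844 CPM. No marker of these lists, or of the 10 plasma cell markers, passed the genotype test, while 2 of 13 skeletal muscle markers were lower in KO. Arntl itself ranged from 2.07 to 42.4 CPM in WT and from 7.93 to 31.4 CPM in KO (log2 fold change -0.25 ± 0.19, adjusted p = 0.465) (exons that the deletion leaves in place are counted as well, which limits this as a check of the labels). The labels disagree on the time of 3 samples titled ZT16 (WT replicates 4 and 5, KO replicate 1), which another label puts at ZT20.

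KO glands held less mRNA of 12 of the 44 ER genes, and none was higher. The lower genes were the chaperones and cofactors Hsp90b1, Calr, Sdf2l1, Dnajb11, Manf and Creld2, the disulfide isomerases Pdia4, Pdia6 and P4hb, the translocation genes Sec61b and Ssr1, and the oligosaccharyltransferase subunit Ddost. The differences were small, from 9.58% lower (P4hb) to 26.9% lower (Sdf2l1). Over all genes tested, 4.11% were called lower in KO and 3.58% higher, by edgeR's quasi-likelihood test with time as a factor and a Benjamini-Hochberg adjusted p under 0.05. All 44 ER genes passed the filter on low counts. Their log2 fold changes (KO minus WT) were negative for 37 of 44, with a median of -0.12, while the median of all 18661 genes tested was 0.00. In bulk tissue, fewer cells of a type and less RNA per cell cannot be told apart. Each sample is a pool of animals, and the p-values measure the spread between pools.

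**Figure D2:**
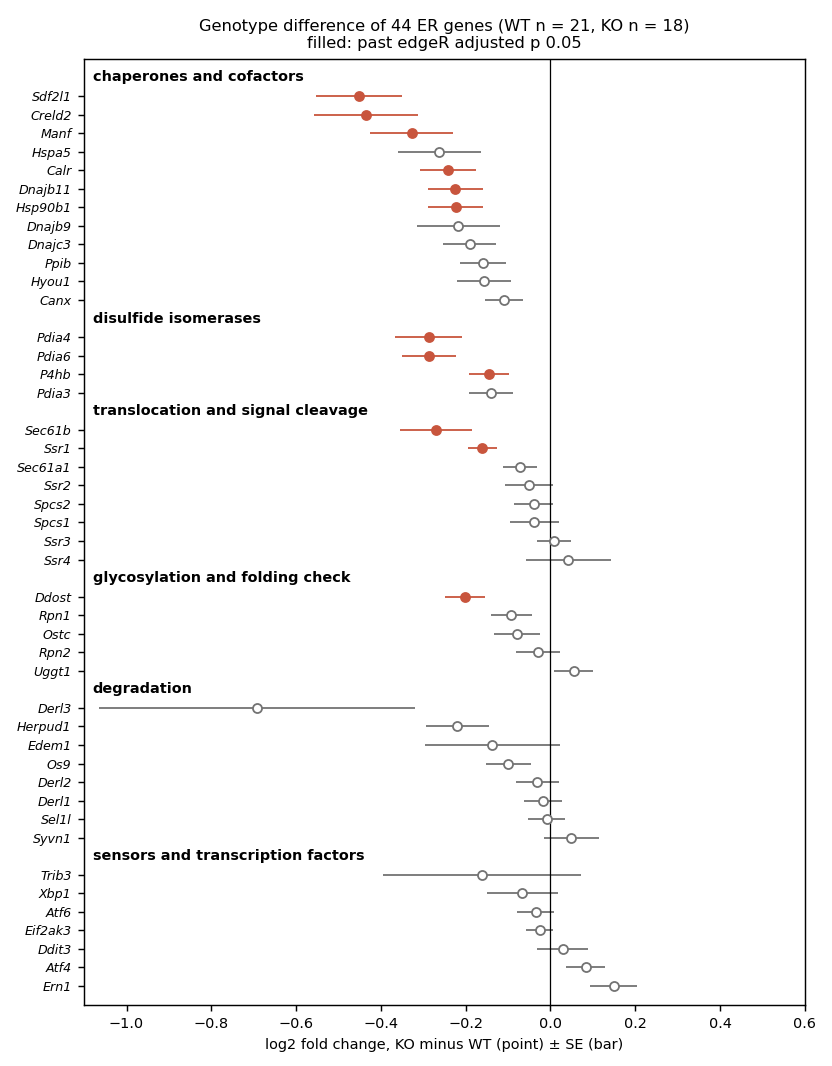
Log2 fold change between genotypes (KO minus WT, horizontal axis) with its SE for each of the 44 genes, grouped by role, from 21 WT and 18 KO libraries. Filled points mark the 12 genes past an adjusted p of 0.05, all to the left of 0, and the sensors and transcription factors at the bottom include the gene with the highest value, Ern1.

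The number of lower genes depended on which libraries entered the fit. Without WT ZT8 replicate 1, 4 of the 44 genes were lower (2.69% of all genes), namely Sdf2l1, Pdia6, Ssr1 and Ddost, and without KO ZT16 replicate 2, 7 were (2.99% of all genes). Without the 12 libraries richest in lymphoid markers (6 WT, 6 KO) only Ssr1 passed (1.16% of all genes), and without the 12 richest in thyroid markers (8 WT, 4 KO) 0 passed (1.58% of all genes). The 12 genes stayed negative in both, with medians of -0.22 and -0.18 against -0.26 in all libraries, and these fits had fewer samples. With the thyroid score as a covariate 11 genes were lower (4.37% of all genes). With 4 tissue scores (thyroid, lymphoid, muscle, fat) 16 were lower (5.24% of all genes) and 1, Ern1, was higher (1075 of all genes tested). Scaling by library totals alone, tried after the data had been seen, moved the median of all genes to 0.08. Under it Sdf2l1, Creld2 and Pdia6 were lower (1.84% of all genes) and Ern1 and Atf4 higher (11.5% of all genes). DESeq2 called 15 lower (5.43% of all genes), adding Dnajc3, Ppib and Herpud1 to the 12.

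Fold changes followed gene length. Among genes with a mean of at least 1 CPM, the median log2 fold change was -0.14 for genes under 1000 merged exon bases and 0.03 for those over 8000. The 17 ER genes of 2000 to 4000 bases that reached this level had a median of -0.16, against -0.03 for the 3887 genes of that class, and 7 of the 17 were lower, against 6.56% of the class. For the 13 ER genes of 4000 to 8000 bases the median was -0.09, against 0.00 for the class, with 1 of 13 lower against 3.99%. The 7 ER genes of 1000 to 2000 bases had a median of -0.27, against -0.07 for the class. Of these 3 were lower (Sdf2l1, Creld2 and Sec61b), against 8.47% of the class. For the 6 ER genes over 8000 bases the median was -0.02, against 0.03 for the class, with 1 lower against 4.07%. The part of gene length in the genotype difference was not tested.

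Among the 12 chaperones and cofactors, 6 were lower and all 12 had negative fold changes, with a median log2 value of -0.22. Sdf2l1 (chr16:17130138-17132383), an ER-resident cofactor of BiP and its J proteins, ranged from 29.8 to 106 CPM in WT (median 57.3) and from 25.3 to 58.8 CPM in KO (median 40.0). The ranges overlapped, and 17 of 18 KO libraries lay below the WT median. Its log2 fold change was -0.45 ± 0.10 (SE, adjusted p = 0.00354), and it stayed past the threshold whichever of the 39 libraries was removed. Creld2 (chr15:88819646-88826681), an ER stress-inducible protein with epidermal growth factor-like domains, ranged from 46.2 to 147 CPM in WT (median 66.5) and from 39.4 to 79.3 CPM in KO (median 52.0). Its fold change was -0.43 ± 0.12 (adjusted p = 0.022), and 15 of 18 KO libraries lay below the WT median. Manf (chr9:106888753-106891938), a secreted factor that is held in the ER and induced by stress, ranged from 66.3 to 176 CPM in WT (median 87.2) and from 54.3 to 107 CPM in KO (median 75.4). Here 15 of 18 KO libraries lay below the WT median, and the log2 fold change was -0.33 ± 0.10 (adjusted p = 0.0323).

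The abundant lectin chaperone Calr (chr8:84842088-84846931), which holds glycoproteins and stores calcium, ranged from 367 to 805 CPM in WT (median 567) and from 373 to 649 CPM in KO (median 484). It was lower in KO by -0.24 ± 0.07 on the log2 scale (adjusted p = 0.0176). Hsp90b1 (chr10:86690841-86705444), which encodes the ER chaperone GRP94, ranged from 595 to 1378 CPM in WT (median 935) and from 607 to 1081 CPM in KO (median 765). For it 17 of 18 KO libraries lay below the WT median, with a log2 fold change of -0.22 ± 0.06 (adjusted p = 0.0257). Dnajb11 (chr16:22857845-22879634), a J protein partner of BiP, ranged from 80.4 to 158 CPM in WT (median 101) and from 77.0 to 122 CPM in KO (median 91.1), with a log2 fold change of -0.22 ± 0.06 (adjusted p = 0.0251). In all 3 genes the ranges of the genotypes overlapped.

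Hspa5 (chr2:34772090-34776529), which encodes BiP, the main HSP70 chaperone of the ER, had the highest level per length of the 44 genes, 247 CPM per kb of merged exons over all libraries. It ranged from 796 to 2224 CPM in WT (median 1013) and from 660 to 1381 CPM in KO (median 930). Its log2 fold change of -0.26 ± 0.10 was larger than those of Calr, Hsp90b1 and Dnajb11, but the gene varied more between libraries of a group (SD of 0.30 on the log2 scale, against 0.19 to 0.20) and did not pass (adjusted p = 0.101). The remaining chaperones that did not pass were Dnajc3 (-0.19, adjusted p = 0.0556), the peptidyl-prolyl isomerase Ppib (-0.16, adjusted p = 0.0659), Canx (-0.11), Hyou1 (-0.16) and Dnajb9 (-0.22).

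Of the 4 disulfide isomerases, which form and reshuffle disulfide bonds, 3 were lower and the median log2 fold change was -0.22. Pdia6 (chr12:17266589-17284785) ranged from 234 to 491 CPM in WT (median 345) and from 224 to 348 CPM in KO (median 272). Of the KO libraries 16 of 18 lay below the WT median, and the log2 fold change was -0.29 ± 0.06 (adjusted p = 0.00253), past the threshold whichever library was removed. Pdia4 (chr6:47796141-47813512) ranged from 167 to 365 CPM in WT (median 242) and from 162 to 265 CPM in KO (median 192), a log2 fold change of -0.29 ± 0.08 (adjusted p = 0.0178). P4hb, the founding member of the family, was near the threshold (-0.15 ± 0.05, adjusted p = 0.0492) and kept its call on removal of only 9 of the 39 libraries, each removed in turn. Pdia3, which works with calreticulin and calnexin on glycoproteins, had a value of -0.14 ± 0.05 and did not pass (adjusted p = 0.0943).

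Translocation genes split. Ssr1 (chr13:37971401-37994208), a subunit of the translocon-associated protein complex beside the SEC61 channel, had the smallest p of the 44 genes. It ranged from 132 to 170 CPM in WT (median 155) and from 114 to 164 CPM in KO (median 136). Its log2 fold change was -0.16 ± 0.03 (adjusted p = 0.00214), 16 of 18 KO libraries lay below the WT median, and the call held whichever library was removed. The other subunits of that complex had values near 0 that did not pass: -0.05 ± 0.06 for Ssr2, 0.01 ± 0.04 for Ssr3 and 0.04 ± 0.10 for Ssr4. Sec61b, a small subunit of the channel, had a log2 fold change of -0.27 ± 0.08 (adjusted p = 0.0394) and kept its call on removal of 19 of the 39 libraries. The pore subunit Sec61a1 had -0.07 ± 0.04 and the signal peptidase subunits Spcs1 and Spcs2 both had -0.04, none of them past the threshold.

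Of the 5 genes of glycosylation and its folding check, Ddost was lower. Ddost (chr4:138304738-138312619), a subunit of the oligosaccharyltransferase that attaches N-glycans, ranged from 203 to 306 CPM in WT (median 272) and from 199 to 276 CPM in KO (median 225). The log2 fold change was -0.20 ± 0.05 (adjusted p = 0.00405), with 16 of 18 KO libraries below the WT median. The other transferase subunits Rpn1, Rpn2 and Ostc had values from -0.09 to -0.03, and Uggt1, which reglucosylates misfolded glycoproteins, had 0.05; none of these passed.

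None of the 8 degradation genes passed the genotype test. Herpud1, a stress-induced component of the retrotranslocation complex, came closest, with a log2 fold change of -0.22 ± 0.07 (adjusted p = 0.0665). The ubiquitin ligase Syvn1, its adaptor Sel1l, the lectin Os9 and the channel components Derl1 and Derl2 ranged from -0.10 to 0.05. Derl3 had the lowest value of the 44 genes, -0.69 ± 0.37 (adjusted p = 0.286), and the widest spread. Its levels ran from 1.14 to 19.1 CPM in WT (median 3.55) and from 1.06 to 10.1 CPM in KO (median 2.34), an 18.1-fold range over the 39 libraries.

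Of the 7 sensors and transcription factors, 0 passed, and their median log2 fold change was -0.03; the difference from the chaperones was not tested. Ern1, which encodes the kinase and RNase IRE1, had the highest value of the 44 genes: it ranged from 42.1 to 64.0 CPM in WT (median 49.6) and from 45.0 to 78.1 CPM in KO (median 55.1). Only 4 of 18 KO libraries lay below the WT median, and the log2 fold change was 0.15 ± 0.06 (adjusted p = 0.0957). Atf4, the transcription factor made when PERK slows translation, ranged from 44.5 to 59.1 CPM in WT (median 50.5) and from 46.9 to 67.5 CPM in KO (median 54.1), with a log2 fold change of 0.08 ± 0.05 (adjusted p = 0.309). Xbp1, whose mRNA IRE1 splices, ranged from 131 to 436 CPM in WT (median 190) and from 143 to 225 CPM in KO (median 193), with -0.07 ± 0.08 (adjusted p = 0.691). Gene counts do not separate its spliced form.

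Atf6 ranged from 91.2 to 130 CPM in WT (median 114) and from 91.1 to 130 CPM in KO (median 109), a log2 fold change of -0.03 ± 0.04 (adjusted p = 0.691). Eif2ak3, which encodes PERK, was the steadiest, from 48.3 to 61.2 CPM in WT (median 56.1) and from 47.8 to 63.3 CPM in KO (median 53.8), with -0.03 ± 0.03 (adjusted p = 0.694). Ddit3, which encodes the stress-induced factor CHOP, ranged from 14.2 to 24.7 CPM in WT (median 18.7) and from 14.0 to 22.9 CPM in KO (median 18.2), with 0.03 ± 0.06 (adjusted p = 0.832). Its target Trib3 was barely read, at 0.122 to 1.15 CPM in WT and 0.153 to 1.01 CPM in KO. The levels of both genotypes overlapped almost entirely for these 4 genes.

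**Figure D3:**
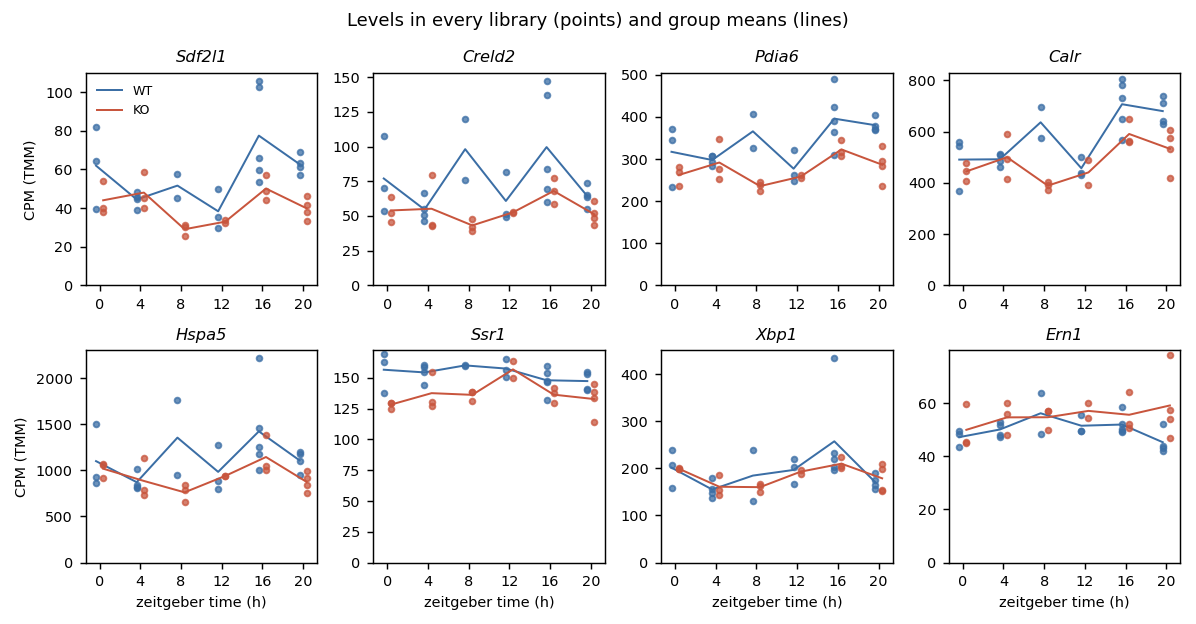
Level (CPM, vertical axis from 0) of 8 genes at each zeitgeber time (horizontal axis, h), with a point for every library and a line through the group means, WT in blue and KO in red. WT points lie above KO points at ZT8 and ZT20 for Sdf2l1, Creld2, Pdia6 and Calr with some overlap for Creld2 at ZT20, while Xbp1 and Ern1 do not show this.

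Among the 9 genes with the ER stress response element, 4 were lower in KO (Hsp90b1, Calr, Creld2 and Pdia6), with a median log2 fold change of -0.24. Among the 28 with a window and no element, 7 were lower, with a median of -0.10. Element and role overlap, since 6 of the 9 genes are chaperones or cofactors. Chaperones and cofactors with a window and no element had -0.45 (Sdf2l1), -0.22 (Dnajb11), -0.22 (Dnajb9) and -0.16 (Ppib). The difference between genes with and without the element was not tested. Of the genes outside the 44 that carry the element, 14 were tested, with a median log2 fold change of -0.02 and 8 of them negative. Among these 1 was lower, Ero1b, an oxidase that recharges the disulfide isomerases (-0.34 ± 0.11, adjusted p = 0.0456). The element of Creld2 is shared with Alg12, a mannosyltransferase gene that starts on the opposite strand (log2 fold change -0.23, adjusted p = 0.0554). That of Calr is shared with 1700122E12Rik, also on the opposite strand (log2 fold change 0.15, adjusted p = 0.894). The E-box CACGTG, the letters that BMAL1 and CLOCK are known to bind, was in 4 of the 37 windows (10.8%, against 8.09% of all windows), and 2 of these 4 genes, Calr and Ssr1, were lower. The sequence ATTGGNCCACG, a second known stress element searched after these results were seen, was in the windows of Herpud1 and Dnajb11 (5.41%, against 0.0444%). That share rests on these 2 genes and, as with the first element, is no finding of these data. TGACGTGG, the core of an element bound by XBP1 and ATF6, and the cyclic AMP response element TGACGTCA were in 0 of 37 windows (0.714% and 2.03% of all windows), and TGATGNAA, letters bound by ATF4 and searched on both strands like the others, was in 2 (5.41%, against 4.51%). The CCAAT box alone, which the first element contains, was in 29 of 37 (78.4%, against 41.1%).

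Taken time by time, no ER gene passed the adjusted test at any of the 6 times. Over all genes 0.0643, 0.075, 0.0589, 0.161, 0.182 and 0.89% passed at ZT0, 4, 8, 12, 16 and 20. With an unadjusted p under 0.05, 3, 1, 19, 1, 5 and 12 of the 44 genes differed, against 5.67, 4.04, 7.76, 8.42, 7.81 and 18.4% of all genes. All 19 at ZT8 were lower in KO, and of the 12 at ZT20, 9 were lower and Ern1, Uggt1 and Syvn1 were higher. The median log2 fold change of the 44 genes was -0.06, 0.02, -0.25, -0.06, -0.12 and -0.15 in that order of times. Whether the genotype difference varies with time was tested as a difference in rhythm, given below.

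At ZT8, Calr read 697 and 575 CPM in the 2 WT libraries and 401, 393 and 373 CPM in the 3 KO libraries. Creld2 read 120 and 76.1 CPM in WT and 47.8, 42.4 and 39.4 CPM in KO, and Pdia6 read 406 and 325 CPM in WT and 245, 238 and 224 CPM in KO. In all 3 genes every KO library lay below both WT libraries, as it did for 25 of the 44 genes and for 12.3% of all genes. Hspa5 read 1766 and 945 CPM in WT and 839, 786 and 660 CPM in KO. The log2 fold changes were -0.71 ± 0.16 for Calr (adjusted p = 0.0996, the lowest at ZT8), -1.18 ± 0.32 for Creld2 (adjusted p = 0.213), -0.63 ± 0.16 for Pdia6 (adjusted p = 0.183) and -0.83 ± 0.26 for Hspa5 (adjusted p = 0.357). DESeq2 called 7 genes there, Hsp90b1, Calr, Hyou1, Dnajc3, Creld2, Pdia4 and Pdia6, all lower (0.473% of all genes). The WT side rests on 2 libraries, both among the 12 richest in thyroid markers. Their thyroid scores (mean log2 CPM of the list) were 4.37 and 5.04, against 1.02, 2.45 and 3.26 in KO. WT replicate 1 was also among the 12 richest in lymphoid markers, and the lymphoid scores were 1.47 and -2.42 in WT against -2.46, -0.78 and -0.35 in KO. The part of either tissue in the ZT8 difference was not tested.

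At ZT20, where each genotype has 4 libraries, Pdia6 read 369, 371, 405 and 377 CPM in WT and 284, 236, 330 and 296 CPM in KO. Sdf2l1 read 57.3, 68.9, 63.2 and 61.5 CPM in WT and 38.2, 33.2, 41.7 and 46.2 CPM in KO. In both genes every KO library lay below every WT library, as it did for 8 of the 44 genes and for 5.1% of all genes. Ern1 went the other way, with 52.2, 42.1, 43.9 and 43.0 CPM in WT and 78.1, 54.2, 57.5 and 46.8 CPM in KO, overlapping by 1 library of each genotype. The log2 fold changes were -0.41 ± 0.13 for Pdia6 (adjusted p = 0.101), -0.65 ± 0.20 for Sdf2l1 (adjusted p = 0.0977) and 0.38 ± 0.12 for Ern1 (adjusted p = 0.0976). DESeq2 called these 3 genes at ZT20 (4.65% of all genes).

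**Figure D4:**
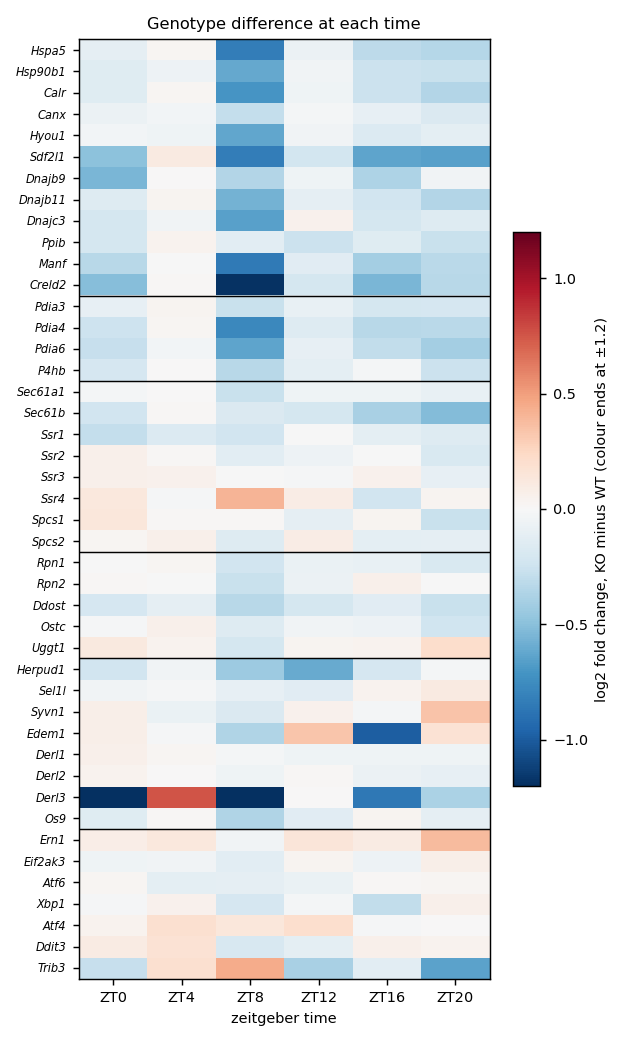
Log2 fold change (KO minus WT, colour) of each of the 44 genes (rows, by role) at each zeitgeber time (columns). The ZT8 column is blue for most chaperones and disulfide isomerases, with a median of -0.25 over the 44 genes, and the ZT4 column is pale, with a median of 0.02.

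No ER gene passed the test for a 24 h rhythm in WT, in KO or for a difference in rhythm, where 0.248, 0.0779 and 0.0161% of all genes passed. At an unadjusted p under 0.05, 11 of 44 varied in WT (14.9% of all genes), 6 in KO (8.27%) and 0 in the difference (3.69%). DESeq2 called 0 in each, and so did edgeR with time as a factor. The lowest adjusted p was 0.238 in WT, for Pdia3 (amplitude 0.18 ± 0.06 on the log2 scale from mean to peak, peak at ZT 16.5), and 0.456 in KO, for Herpud1 (0.16 ± 0.05, peak at ZT 17.0). Calr had amplitudes of 0.24 ± 0.08 in WT and 0.20 ± 0.07 in KO with peaks at ZT 17.6 and 18.5, and Hsp90b1 had 0.21 ± 0.08 and 0.18 ± 0.05 with peaks at ZT 15.7 and 16.3. Group means were highest at ZT16 for 21 of the 44 genes in WT and for 24 in KO. The means of 14 genes were highest at ZT8 in WT, and those of 21 were lowest at ZT8 in KO. The shares of all genes with such extremes were not computed, and genes that vary together are not separate observations. The ZT16 groups also include the samples whose time labels disagree.

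Across libraries, whatever the genotype and time, many of these genes went up and down together with Hspa5. After the mean of each genotype and time group was removed, Pearson's r with Hspa5 over the 39 libraries was 0.96 for Manf (Spearman's rho 0.95), 0.92 for Dnajb11 (0.90), 0.90 for Creld2 (0.91) and 0.89 for Spcs2 (0.86). For each of these 4 the permutation p within groups was 1e-05, the smallest that the 100000 permutations can give, and 5.37e-05 after adjustment over the 43 relations computed. Of the 43 genes, 29 passed an adjusted p of 0.05 by both measures. Xbp1 had r = 0.81 (rho 0.67, adjusted p = 3.29e-04 and 0.00166), while Ern1 had r = -0.15 (rho -0.13, adjusted p = 0.476 and 0.531) and Edem1 r = 0.03 (rho 0.16, adjusted p = 0.913 and 0.449). The libraries farthest from the median of Hspa5 were WT ZT16 replicate 1 and WT ZT0 replicate 2. Without them r was 0.94 for Manf, 0.89 for Dnajb11, 0.87 for Creld2, 0.85 for Spcs2 and 0.73 for Xbp1. Genes of a library share its depth, scaling and tissue content, and how often other genes follow Hspa5 this closely was not measured.

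**Figure D5:**
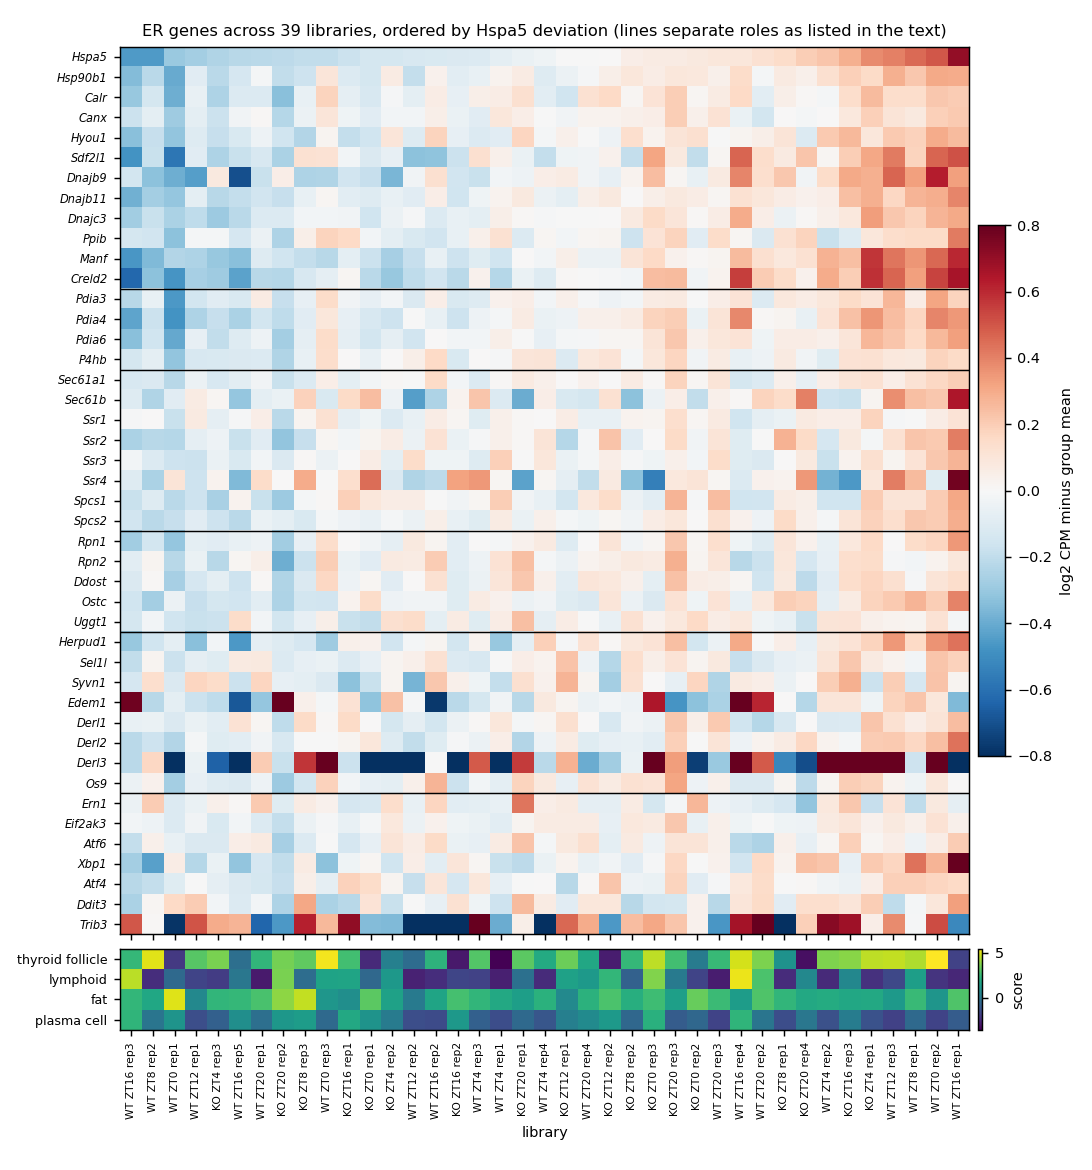
Deviation of each of the 44 genes (rows, by role) from its genotype and time group mean (log2 CPM, colour ends at ±0.8) in the 39 libraries, ordered from the lowest to the highest Hspa5 deviation. Rows below give each library's thyroid, lymphoid, fat and plasma cell scores; Manf, Creld2 and Dnajb11 grade from blue to red as Hspa5 does, and Edem1, Derl3 and Trib3 do not.

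Slopes on each tissue score were fitted with genotype, time and the other tissue scores in the model, so each holds the others fixed. Of the ER genes, 2 passed for a tissue score. Derl3 was higher in libraries with a higher thyroid score, by 0.27 ± 0.05 on the log2 scale per unit of score (adjusted p = 9.84e-04), and was the only one of the 44 to pass for that score in either direction (over all genes, 2.54% were higher and 0.204% lower with it). Edem1, which feeds misfolded glycoproteins to degradation, was higher with the lymphoid score, by 0.19 ± 0.03 per unit (adjusted p = 3.58e-04), again alone among the 44 (3.9% of all genes higher and 0.793% lower). At ZT16 Edem1 read 52.5, 39.2, 115, 136 and 41.9 CPM in WT, and the libraries at 115 and 136 CPM had the lymphoid scores 4.53 and 5.18. No ER gene passed in either direction for the skeletal muscle, fat or plasma cell scores (0.00536, 0.922 and 0.0322% of all genes). At an unadjusted p under 0.05, 26 of the 44 were lower with a higher muscle score, against 4.55% of all genes. With the plasma cell score 13 were lower, against 3.54%, and 0 were higher with either. With the lymphoid score 9 were higher, against 9.46% of all genes, and 0 were lower, against 7.26%. With the thyroid score 2 were higher (8.98%) and 2 lower (4.88%), and with the fat score 2 were higher (6.33%) and 2 lower (5.51%). Pdia6 had the smallest p for muscle, with a slope of -0.20 ± 0.06 on the log2 scale per unit of score (adjusted p = 0.524). Derl3 is known to be abundant in plasma cells. The summed level of the 10 plasma cell markers ranged from 7.16 to 197 CPM in WT and from 9.64 to 118 CPM in KO, none of them was at 0 in every library, and the slope of Derl3 on that score was 0.15 ± 0.19 (adjusted p = 0.887).

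Around the 44 genes, 124 other genes of the same pathways were read. Of these 12 were lower and 2 higher in KO, against 4.11% and 3.58% of all genes, and their median log2 fold change was -0.04. In translocation, 2 of 26 were lower, the signal peptide peptidase H13 (-0.09 ± 0.03, adjusted p = 0.0495) and the membrane insertase subunit Emc10 (-0.25 ± 0.05, adjusted p = 0.00173). In N-glycosylation 2 of 23 were lower, the mannosyltransferase Alg1 (-0.31 ± 0.07, adjusted p = 0.00267) and the oligosaccharyltransferase subunit Tmem258 (-0.20 ± 0.06, adjusted p = 0.0174). In folding and redox control 3 of 24 were lower, Ero1b, the prolyl isomerase Fkbp11 (-0.55 ± 0.12, adjusted p = 0.00165) and the thioredoxin family member Txndc12 (-0.17 ± 0.05, adjusted p = 0.0338). In degradation 1 of 24 was lower, Edem2, which trims mannose from misfolded glycoproteins (-0.22 ± 0.04, adjusted p = 1.75e-04). In the stress response list 4 of 27 were lower and 2 higher. Ppp1r15b, a constitutive subunit of the phosphatase that reverses PERK signalling, rose (0.12 ± 0.03, adjusted p = 0.0101). Ppp1r15a, an alternative subunit of the same phosphatase, fell (-0.17 ± 0.05, adjusted p = 0.0369). Ddit4, a stress-induced inhibitor of mTORC1, also fell (-0.26 ± 0.07, adjusted p = 0.0282).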

How the data were processed

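The deposited values are raw counts of reads per gene in each library, used as they stand. The submitters' processing notes name build mm10, STAR 2.7.8a, DESeq2 1.30.1 and featureCounts 2.0.1. The counting annotation is not given in the sources used here, nor is its strand setting, and genes that overlap can hold each other's reads. Low counts (1 to 10) were even in 89.6% of cases, so fragments may number fewer than counts. Symbols and positions were those of GRCm38.p6 (25275 of 27179 rows matched, 98.0% of counts), and merged exon lengths came from GENCODE M21.

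In R 4.3.3, edgeR 4.0.16 was run on all genes (robust quasi-likelihood fit, filterByExpr by the 12 groups). Its scaling factors ran from 0.840 to 1.10, with medians of 0.971 in WT and 1.04 in KO. Genotype was fitted with time as a factor, each time as a contrast of group means, and rhythm as cosine terms of a 24 h period. Amplitudes used log2 CPM with a prior count of 2, and scores are the mean log2 CPM of marker lists. Samples were grouped by title. The code was tested on simulated data. The 48 replicate pairs differed by 36.1 to 372 chi-square per gene, so none was a copy.

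Full values are given for the 10 genes of smallest p past the genotype threshold and for Hspa5, Ern1, Eif2ak3, Atf6, Xbp1, Atf4 and Ddit3, with the other genes in brief and up to 2 called genes per pathway list (Ero1b is named for its element, and Ppp1r15a beside Ppp1r15b). The genes, lists and tests were chosen with earlier results of these data known. Length classes, correlations with Hspa5, the CCAAT and ATTGGNCCACG searches and the fits with library totals or a parathyroid score were added after the data had been seen. Alternatives also included DESeq2 1.42.0, its size factors, other filters, time labels and covariates, and libraries left out.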

Additional observations from a re-analysis of the deposited data

Results flagged for a closer look

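In groups of 4 or 5 libraries, 14 of 176 gene by group sets had a library far from the rest by Dixon's criterion, and chance alone gives about 1 in 20. WT ZT16 replicate 1 was high for 7 of the genes. It read 116 CPM of Ppib (78.6 to 88.3 CPM in the other 4 libraries), 159 CPM of Sec61b (81.6 to 102), 277 CPM of Ssr3 (211 to 226), 665 CPM of Ssr4 (305 to 362), 89.7 CPM of Ostc (61.1 to 66.8), 65.4 CPM of Derl2 (41.6 to 47.0) and 436 CPM of Xbp1 (197 to 232). In that library short genes were high as a whole, by a median of 0.35 on the log2 scale under 1000 merged exon bases. The median was 0.23 at 1000 to 2000 bases, 0.07 at 2000 to 4000, -0.03 at 4000 to 8000 and -0.07 over 8000. Of the 7 genes, Sec61b has 1271 bases, Ostc 2751, Ssr4 3096, Xbp1 3248, Ppib 3305, Ssr3 4172 and Derl2 8049. The part of length in the 7 values was not tested. Without that library 11 of the 44 genes were lower in KO, and the median of the 12 was -0.23.

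Derl3 read 19.1 CPM in WT ZT16 replicate 4, against 1.85 to 4.13 CPM in the other 4, and the same library had a thyroid score of 4.86, a lymphoid score of 5.18 and a plasma cell score of 2.34; the part of these in its value was not tested. Os9 read 334 CPM in WT ZT16 replicate 2 (255 to 277 CPM in the others). In WT ZT20 replicate 3, Hsp90b1 read 973 CPM (935 to 941) and Spcs2 128 CPM (113 to 114). In KO ZT20 replicate 2, Pdia3 was low at 356 CPM (421 to 426) and Edem1 high at 87.4 CPM (33.2 to 39.5), and the lymphoid score was 3.63. Herpud1 read 89.99 CPM in KO ZT20 replicate 3 (70.9 to 73.0).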

How the results depend on the processing

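The 12 lower genes had negative fold changes in all 16 alternatives, and the number of ER genes lower in KO lay between 10 and 16 in 13 of them. It was 1 without 12 lymphoid-rich libraries, 0 without 12 thyroid-rich libraries and 3 with library totals only, and 4 to 16 with each library left out in turn. The cause was not tested. The number higher was 0, except 1 with 4 tissue scores as covariates, 2 with library totals only, and 0 to 1 with each library left out. DESeq2 called 7 at ZT8 and 3 at ZT20 where edgeR called 0, and 4 tissue scores gave 1 at ZT20. The main edgeR fit, without tissue scores, gave 0 to 1 at ZT20 with each library left out. Other pathway genes higher in KO numbered 4 with a filter at a mean of 1 CPM, against 2. With a replicate block 11 genes were lower; replicate numbers did not pair samples, since the median correlation of deviations was 0.01 over 183 same-number pairs, 57 of them over 0.1, and 8 of 39 libraries correlated best with a library of their own number. The block changed no call at a time or for rhythm. The contrasts at ZT12 and ZT8 could not be fitted without the lymphoid-rich and the thyroid-rich libraries. Signs changed only for genes that did not pass, on the log2 scale. With library totals only the values were 0.013 for Sec61a1, 0.037 for Ssr2, 0.047 for Spcs1, 0.047 for Spcs2, 0.055 for Rpn2, 0.0080 for Ostc, 0.075 for Sel1l, 0.068 for Derl1, 0.055 for Derl2, 0.059 for Eif2ak3, 0.050 for Atf6 and 0.025 for Xbp1. With 4 tissue scores they were -0.013 for Ssr3, -0.031 for Ssr4 and 0.036 for Sel1l, and with the thyroid score -0.011 for Ssr4 and 0.0013 for Sel1l. Without the thyroid-rich libraries they were -0.0094 for Ssr3, 0.061 for Edem1, 0.012 for Derl2 and 0.029 for Eif2ak3, without the lymphoid-rich ones 0.12 for Trib3, and at a mean of 1 CPM 0.0059 for Sel1l. With each library left out Ssr3 ranged from -0.0035 to 0.028 and Sel1l from -0.030 to 0.014. Trib3, at 0.122 to 1.15 CPM in WT, had the lowest mean CPM of the 44 genes.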
